A study of Mus musculus with 10 samples.

Results

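The promoter contacts of 35 genes that mark macrophages, monocytes and dendritic cells were examined in stem and progenitor cells of mouse bone marrow. The genes were taken from a fixed list of names, and each was tied to the captured HindIII fragments (the baits) that hold the start or the end of the gene. A bait with at least 1 listed contact was found for 26 of the 35 genes, on 27 of the 13024 baits of the series. These 27 baits carried 191 of the 88624 contacts listed for progenitor cells and 32 of the 25622 contacts listed for neutrophils. Adgre1, Cd163, Marco, Msr1, Vcam1, Flt1, Tlr4, Tlr7 and Tcf4 had no bait among the listed contacts and were not measured. C1qa, C1qb and C1qc share 1 bait, and Cd68, Maf and Axl have 2 baits each, named here by the end of the gene, in genome coordinates, that each holds.

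Promoter-capture Hi-C links chromatin fragments that touched in the nucleus, and a capture step keeps the linked molecules that carry a promoter. The 5 groups of C57BL/6 bone marrow cells compared had 2 libraries each, labelled as biological duplicates. Npm1c cells were Npm1flox-cA/+;Mx1-Cre+, Flt3-ITD cells were Flt3ITD/+, and double-mutant (DM) cells were Npm1flox-cA/+;Flt3ITD/+;Mx1-Cre+. WT neutrophils and WT stem and progenitor cells (HSPCs) carried neither mutation, and all HSPCs were the lineage-negative fraction of marrow left by a depletion kit. Mx1-Cre, a Cre recombinase under an interferon-responsive promoter, is named for the Npm1c and DM groups and not for the Flt3-ITD or WT groups. The labels do not give ages or how many mice lie behind a library. Lineage-negative marrow is a mixture of progenitors, so a contact made in more of the cells and a larger share of the cells that make it cannot be told apart, and these libraries hold no RNA level by which to check the cell types present.

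Macrophages and dendritic cells take up particles and dead cells, sense microbes and present peptides to T cells. MHC class II molecules, built from H2-Aa, H2-Ab1 and H2-Eb1 chains under the control of the coactivator Ciita, are escorted by the invariant chain Cd74, and endosomal proteases such as Lgmn (legumain) help to process antigen. These genes come into full use as monocytes and dendritic cells mature.

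For 6 of the baits that the results turn on, the 250 bases before the RefSeq start site (GRCm38.p6) are printed here, 5′ to 3′ on the strand of the gene. Capitals mark matches on either strand to CCAAT, which reads ATTGG from the other strand, the box that NF-Y binds and a part of class II promoters, or to GAGGAA, which then reads TTCCTC, a core bound by ETS factors such as PU.1. The 2 motifs do not overlap in these windows.
Lgmn: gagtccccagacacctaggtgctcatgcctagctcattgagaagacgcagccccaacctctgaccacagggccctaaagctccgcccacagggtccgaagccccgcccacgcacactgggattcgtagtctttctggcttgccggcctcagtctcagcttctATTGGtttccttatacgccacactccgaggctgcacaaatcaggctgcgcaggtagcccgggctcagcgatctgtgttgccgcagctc
H2-Aa: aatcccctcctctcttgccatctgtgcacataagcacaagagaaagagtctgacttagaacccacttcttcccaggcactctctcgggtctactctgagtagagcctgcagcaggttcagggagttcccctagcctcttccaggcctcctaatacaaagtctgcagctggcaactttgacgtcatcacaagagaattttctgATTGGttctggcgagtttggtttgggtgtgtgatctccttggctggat
H2-Eb1: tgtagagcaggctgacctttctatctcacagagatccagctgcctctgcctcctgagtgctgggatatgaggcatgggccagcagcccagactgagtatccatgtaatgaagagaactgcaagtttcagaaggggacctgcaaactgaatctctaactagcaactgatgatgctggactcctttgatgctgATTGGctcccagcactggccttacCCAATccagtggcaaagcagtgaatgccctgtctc
Fcgr1: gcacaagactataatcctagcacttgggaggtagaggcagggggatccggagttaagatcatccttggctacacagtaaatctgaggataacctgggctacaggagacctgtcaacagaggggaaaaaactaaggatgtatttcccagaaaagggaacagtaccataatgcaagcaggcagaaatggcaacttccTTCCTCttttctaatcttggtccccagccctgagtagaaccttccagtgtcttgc
Clec9a: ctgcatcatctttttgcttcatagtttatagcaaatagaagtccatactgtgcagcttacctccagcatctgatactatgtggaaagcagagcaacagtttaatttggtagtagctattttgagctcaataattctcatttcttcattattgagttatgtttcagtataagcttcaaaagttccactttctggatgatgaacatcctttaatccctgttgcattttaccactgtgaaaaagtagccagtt
Tlr9: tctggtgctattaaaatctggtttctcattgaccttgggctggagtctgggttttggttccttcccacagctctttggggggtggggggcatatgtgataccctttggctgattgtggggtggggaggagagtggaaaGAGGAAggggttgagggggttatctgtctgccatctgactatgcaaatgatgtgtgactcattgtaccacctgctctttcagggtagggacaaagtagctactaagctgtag
The Lgmn window lies at chr12:102439729-102439978 on the minus strand, and the H2-Aa window at chr17:34287824-34288073 on the minus strand. H2-Eb1 is shown from chr17:34305617-34305866 on the plus strand, Fcgr1 from chr3:96293970-96294219 on the minus strand, Clec9a from chr6:129408612-129408861 on the plus strand and Tlr9 from chr9:106222348-106222597 on the plus strand. Lgmn and H2-Aa each held 1 CCAAT match, 88 and 48 bases before the start site, and H2-Eb1 held 2, at 59 and 35 bases. Fcgr1 and Tlr9 each held 1 GAGGAA match, at 55 and 112 bases, and the Clec9a window held neither set of letters. These letters are common: CCAAT was found in 8 of 24 windows of these genes and in 33.8% of the 32851 windows of the RefSeq promoter table, and GAGGAA in 10 of 24 and in 23.3%, on either strand. Of the 35 genes, 23 were in that table, and a match describes a sequence, not a bound site.

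Each contact has 1 score per library, a number from 0 upward that the labels do not define, and every contact listed for HSPCs scored 5 or more in both libraries of at least 1 HSPC group. A group's high score therefore brought each contact into the list, so counts at 5 describe the list and are given without a test. At 5 or more in both libraries were 37 of the 191 contacts (19.4%) in Npm1c, 95 (49.7%) in Flt3-ITD, 126 (66.0%) in DM and 44 (23.0%) in WT HSPCs. Over all 88624 listed contacts the shares were 41.8% in Npm1c, 51.2% in Flt3-ITD, 48.8% in DM and 34.9% in WT HSPCs. DM HSPCs thus held the most contacts of these baits and Npm1c HSPCs the fewest, whereas over the whole list Flt3-ITD HSPCs held the most.

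Single libraries gave the same order for DM. In DM HSPCs 75.9% and 78.5% of the 191 contacts reached 5, against 43.5% and 32.5% in WT HSPCs. Flt3-ITD libraries had 58.1% and 61.8%, and the Npm1c libraries, which overlapped the WT range, had 28.8% and 41.4%. The mean share was 77.2% ± 1.85 in DM and 38.0% ± 7.77 in WT HSPCs (SD, n = 2 each). DM alone listed 65 of the 191 contacts (34.0%), against 18.5% of all listed contacts. Other gene lists had like shares: contacts at 5 in both libraries made up 60% in DM and 23.9% in WT HSPCs for a list of neutrophil genes, and 53.4% in DM and 17.2% in WT HSPCs for a list of stem and progenitor genes. Whether the shares of macrophage and dendritic cell genes differ from those of these lists was not tested.

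**Figure D1:**
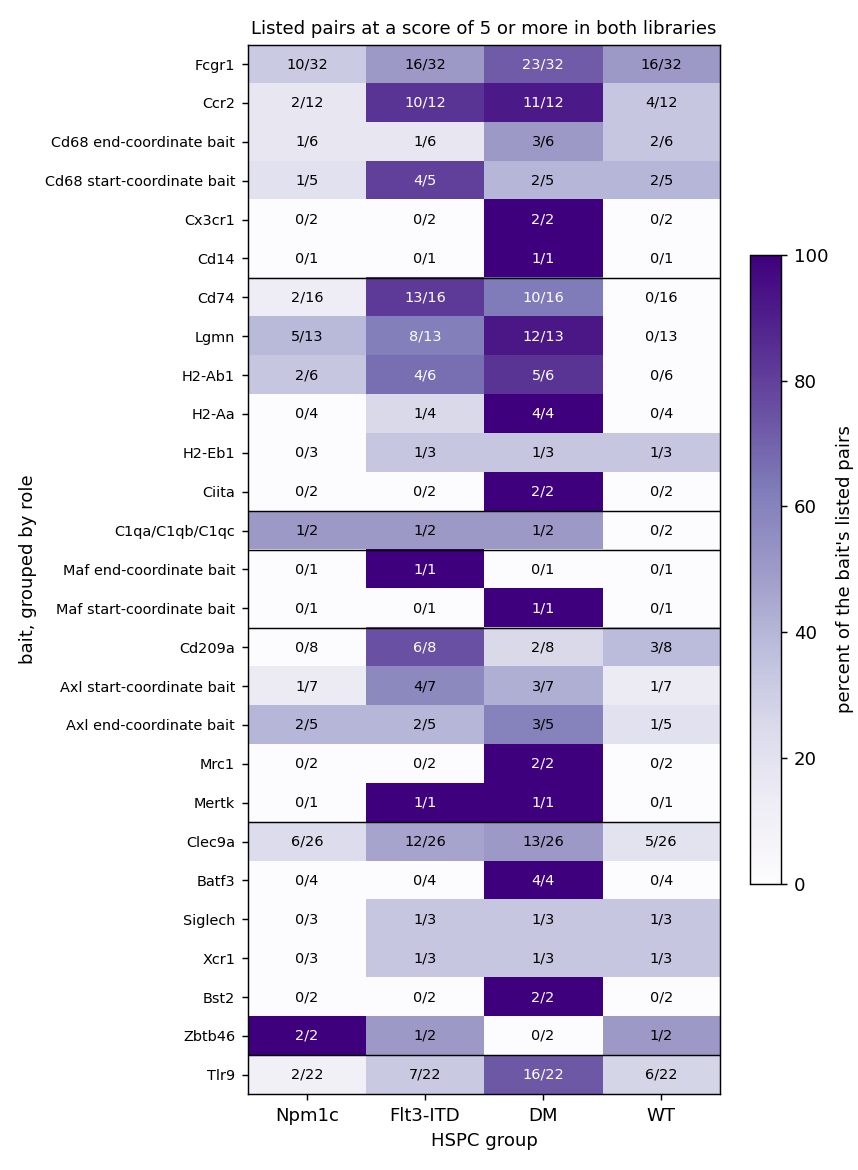
Listed contacts of each bait that scored 5 or more in both libraries of an HSPC group, as a count over the bait's listed contacts and as a shade for the percent; baits run down the page by role, groups across. The DM column holds the most contacts, including all listed contacts of Batf3, H2-Aa, Ciita, Cx3cr1, Mrc1 and Bst2. Those of Batf3, Ciita, Cx3cr1, Mrc1 and Bst2 were all brought in by DM alone. Their full DM counts, with none in the other groups, thus restate the rule of the list. The WT column has none for Cd74, Lgmn or H2-Aa.

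Taken bait by bait, the mean of log2(score + 1) over a bait's listed contacts was higher in both DM libraries than in both WT libraries for 20 of the 27 baits, and lower for 0. Across all 12186 HSPC baits the same held for 41.7% (higher) and 19.8% (lower). Flt3-ITD libraries were both above both WT libraries at 14 of 27 baits (43.6% of all baits) and both below at 3 (14% of all baits). Npm1c libraries were both above at 6 (30.8% of all baits) and both below at 6 (15.8% of all baits). Among the 17 baits with 1 to 5 contacts, both DM libraries were above both WT libraries at 11 (40.6% of all such baits) and below at 0 (20.1%), and both Flt3-ITD libraries were above at 6 (36.3%). Of single contacts, 110 of 191 had both DM libraries above both WT libraries and 21 had both below, against 32.6% and 19.4% of all listed contacts. These means and counts include the contacts that the groups compared brought in, and the 3 mutant comparisons share the same 2 WT libraries. Batf3, Bst2, Cd14, Ciita, Cx3cr1, Mrc1 and the Maf start-coordinate bait had every listed contact brought in by DM alone, 7 of 27 baits against 10.4% of all baits. High DM scores at these 7 baits, given below, are therefore a description of selected contacts.

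To compare groups without that selection, promoters were tested with limma on the mean over the contacts that an HSPC group outside the comparison had brought in, for baits with at least 10 such contacts, with Benjamini-Hochberg adjustment over all promoters tested. Only Fcgr1, Clec9a, Tlr9, Cd74, Lgmn and Ccr2 had enough contacts, and the other 21 baits were too sparse for this test. The outside groups are mutants too wherever a mutant is set against WT.

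**Figure D2:**
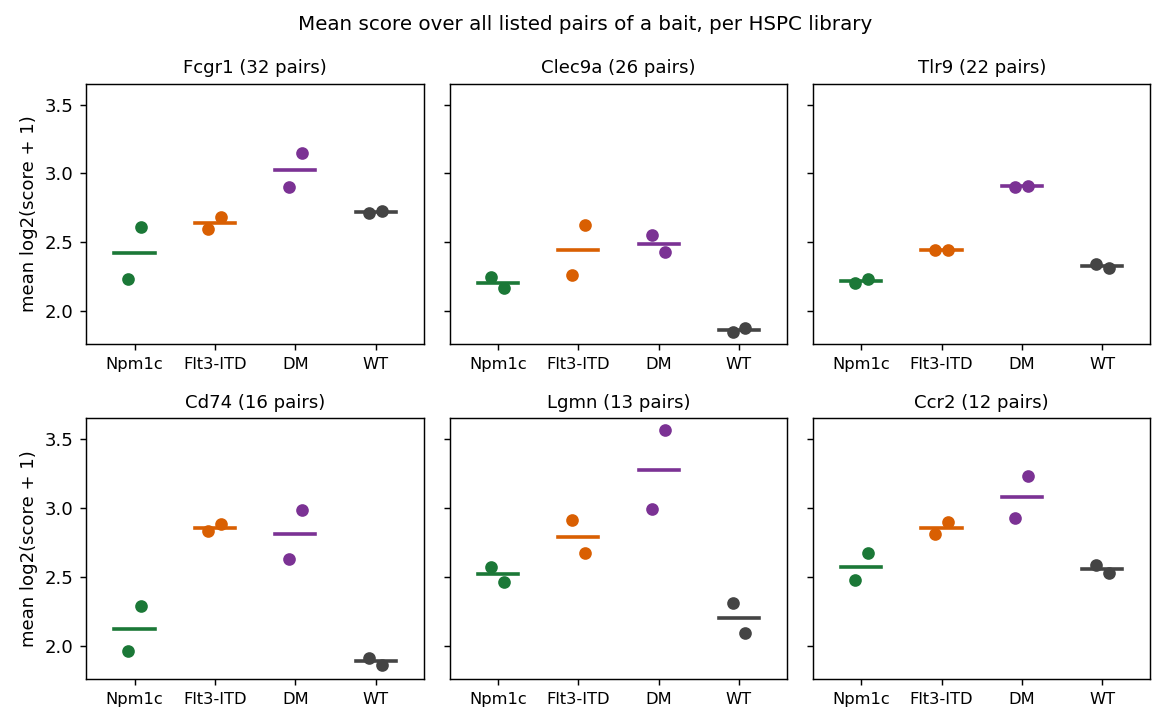
Mean log2(score + 1) over all listed contacts of the 6 baits with at least 10 of them, 1 point per library and a line at the group mean (n = 2), for Npm1c, Flt3-ITD, DM and WT HSPCs. Both DM points lie above both WT points at each of the 6 baits, as at 41.7% of all 12186 HSPC baits. The means include contacts that DM brought in, so they do not remove the selection by score. Over the 9 outside contacts of Tlr9 alone, the difference between DM and WT was -0.023. Npm1c and WT points lie close together for Ccr2 and Tlr9.

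Among the class II and antigen processing genes, Lgmn and Cd74 had enough contacts to be tested. At 5 or more in both libraries were 9 of the group's 44 contacts in Npm1c, 27 in Flt3-ITD, 34 in DM and 1 in WT HSPCs. The bait of Lgmn, whose protease cleaves after asparagine, lies at chr12:102438999-102442057 and met 13 fragments between 427 and 489 kb away, all on the same side, over Cpsf2 (a subunit of the mRNA cleavage machinery), Ndufb1 (of respiratory complex I) and Atxn3 (a deubiquitinase). Of these 13 contacts, 5 reached 5 in both Npm1c libraries, 8 in Flt3-ITD, 12 in DM and 0 in WT HSPCs. The fragment that holds ends of both Cpsf2 and Ndufb1, 465 kb away, scored 6.16 and 4.83 in Npm1c, 9.48 and 6.01 in Flt3-ITD, 14.3 and 12.3 in DM, and 5.93 and 4.14 in WT HSPCs. Both DM libraries stood above all 6 other HSPC libraries there. A fragment within Cpsf2, 446 kb away, scored 7.05 and 10.1 in Npm1c, 7.75 and 7.55 in Flt3-ITD, 8.99 and 19.7 in DM, and 4.42 and 2.89 in WT HSPCs, so all 3 mutant groups lay above WT.

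Over the 10 Lgmn contacts brought in by Npm1c or Flt3-ITD, the mean log2(score + 1) was 2.98 and 3.61 in DM, against 2.41 and 2.02 in WT HSPCs. The DM libraries did not overlap the WT libraries, and the difference of 1.09 (SE 0.23) passed limma's test at a Benjamini-Hochberg adjusted p of 0.0215. In all, 2 of the 5 baits tested passed in this comparison, both higher in DM, where 4.89% of 1841 promoters were called higher and 0.815% lower. Without DM replicate 1, DM replicate 2 or WT replicate 2 limma's adjusted p for Lgmn was 0.442, 0.549 and 0.135, with differences of 1.40, 0.77 and 0.89. When all baits with 1 or more outside contacts were tested, the adjusted p was 0.412. The same bait gave 2.85 and 2.67 in Flt3-ITD against 2.29 and 2.09 in WT HSPCs over 12 contacts, a difference of 0.57 (SE 0.20) that limma did not call (adjusted p 0.0582).

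Contacts are also listed with Lgmn as the other end. The bait shared by Cpsf2 and Ndufb1 saw the Lgmn fragment 465 kb away at 6.2 and 5.3 in Npm1c, 7.1 and 5.4 in Flt3-ITD, 11.3 and 8.4 in DM, and 6.1 and 5.2 in WT HSPCs, again highest in both DM libraries. A bait of Ppp4r3a, a regulatory subunit of protein phosphatase 4, 1353 kb away, saw it at 2.2 and 2.4 in Npm1c, 6.6 and 6.2 in Flt3-ITD, 2.9 and 4.7 in DM, and 0.2 and 0.0 in WT HSPCs, which put the Flt3-ITD libraries highest.

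**Figure D3:**
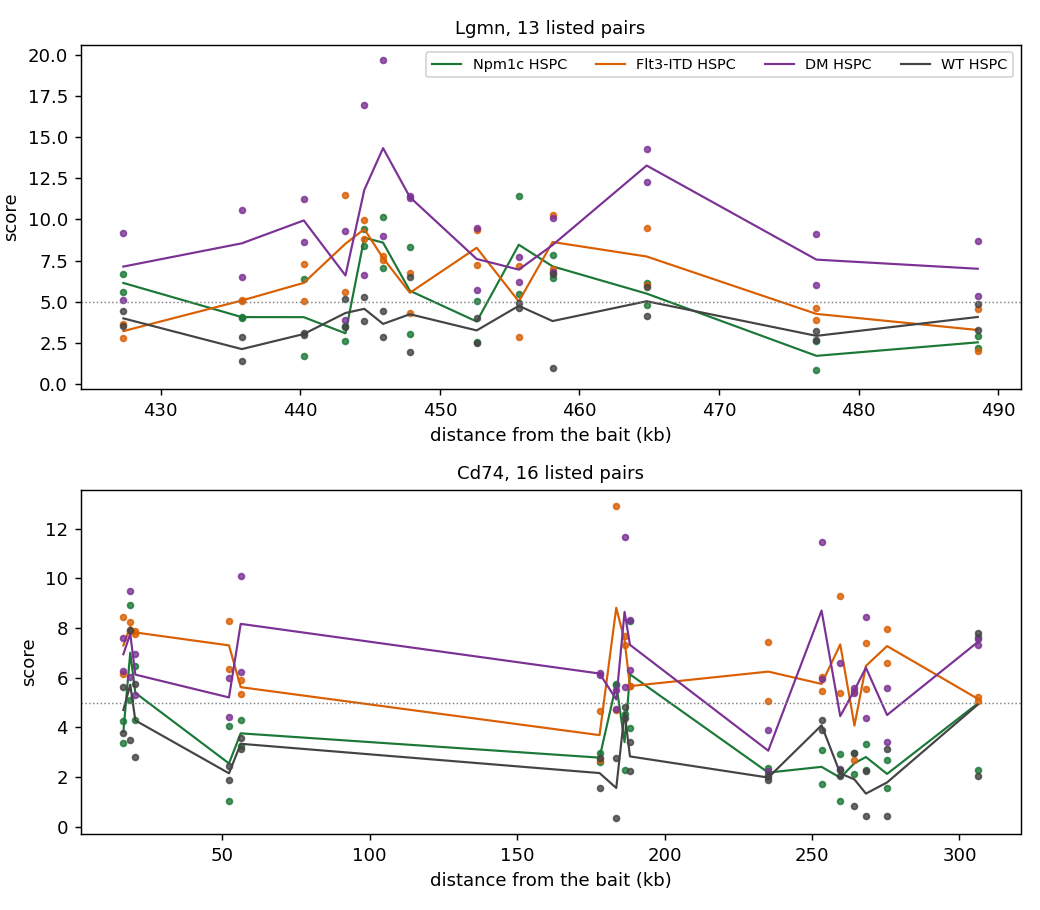
Scores of the listed contacts of Lgmn and Cd74 against distance from the bait in kb, with 1 point per library, lines through the group means and a dotted line at 5. Both DM points of Lgmn lie above both WT points at 12 of the 13 contacts, against 32.6% of all listed contacts. DM reached 5 in both libraries at 12 of the 13 and WT at 0, so the rule of the list enters that count. For Cd74 the Flt3-ITD and DM lines run above the WT line over most of the contacts.

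The Cd74 bait met 16 fragments, all on 1 side, with 5 within 56.2 kb over Cd74 itself and Tcof1 and 11 between 178 and 306 kb over Camk2a, Cdx1, Pdgfrb and Csf1r. Csf1r encodes the receptor through which macrophages receive their main growth factor. At 5 in both libraries were 2 of the 16 contacts in Npm1c, 13 in Flt3-ITD, 10 in DM and 0 in WT HSPCs. With the Tcof1 fragment 56.2 kb away, the scores were 3.24 and 4.28 in Npm1c, 5.89 and 5.35 in Flt3-ITD, 6.22 and 10.1 in DM, and 3.13 and 3.55 in WT HSPCs. With the Csf1r fragment 306 kb away they were 2.27 and 7.65 in Npm1c, 5.06 and 5.24 in Flt3-ITD, 7.54 and 7.33 in DM, and 7.80 and 2.03 in WT HSPCs. The first contact separated Flt3-ITD and DM from WT, while the WT libraries at the Csf1r contact spanned all the other groups.

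Over the 11 Cd74 contacts usable for Flt3-ITD against WT, the mean log2(score + 1) was 2.77 and 2.85 in Flt3-ITD and 2.24 and 1.93 in WT HSPCs. The difference of 0.72 (SE 0.20) passed limma's test (adjusted p 0.0250), the only one of 6 baits of these genes to do so, where 7.7% of 1858 promoters were called higher and 0 lower. Clec9a, with 0.49 (SE 0.20), had an adjusted p of 0.103. Over 14 contacts Cd74 averaged 2.61 and 3.02 in DM against 1.91 and 1.97 in WT HSPCs, a difference of 0.88 (SE 0.20) with an adjusted p of 0.0237 in limma. Without Flt3-ITD replicate 1, Flt3-ITD replicate 2 or WT replicate 2, limma's adjusted p for the Flt3-ITD difference was 0.188, 0.407 and 0.0786. Without DM replicate 1, DM replicate 2 or WT replicate 2 that for the DM difference was 0.442, 0.549 and 0.110. With quantile normalization the adjusted p was 0.380 for Flt3-ITD and 0.0649 for DM, and with 1 or more outside contacts 0.483 and 0.410.

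The class II chain genes had few contacts. H2-Aa, the alpha chain of I-A, met a fragment that holds an end of the butyrophilin-like gene Btnl2, 82.8 kb away, at 4.62 and 4.16 in Npm1c, 7.08 and 5.43 in Flt3-ITD, 7.16 and 10.5 in DM, and 4.67 and 4.88 in WT HSPCs. H2-Ab1, the beta chain of I-A, met the same fragment 107 kb away at 2.56 and 8.02 in Npm1c, 5.82 and 8.34 in Flt3-ITD, 10.2 and 8.77 in DM, and 6.21 and 4.61 in WT HSPCs. Both baits gave the highest scores for this fragment in the DM libraries. H2-Eb1, the beta chain of I-E, had 3 contacts, and 1 of them, within the collagen gene Col11a2, was listed by WT alone, at 1.24 and 0.247 in Npm1c, 1.71 and 1.68 in Flt3-ITD, 0.640 and 1.32 in DM, and 5.87 and 5.48 in WT HSPCs. That contact ran against the rest of the group, and limma did not call it for DM against WT (adjusted p 0.0822).

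Ciita had 2 contacts, at 36.8 and 65.9 kb, within Tvp23a and Nubp1. The one within Nubp1 scored 1.49 and 2.07 in Npm1c, 3.31 and 1.70 in Flt3-ITD, 6.47 and 7.43 in DM, and 1.81 and 0.975 in WT HSPCs. Both DM libraries were above 6 and all others below 4, and the adjusted p of the DM difference in limma was 0.0804. DM alone had brought this contact into the list, so its DM scores selected it.

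Of the surface receptors, Fcgr1 and Ccr2 had the most contacts. Fcgr1, the high-affinity receptor for IgG, met 32 fragments between 111 and 348 kb on 1 side of its bait at chr3:96290237-96300565, more than any other of these baits, over BC107364, the haemojuvelin gene Hjv, Txnip and Polr3gl. At 5 in both libraries were 10 of 32 in Npm1c, 16 in Flt3-ITD, 23 in DM and 16 in WT HSPCs. A fragment 122 kb away scored 6.66 and 5.6 in Npm1c, 7.86 and 8.81 in Flt3-ITD, 11.8 and 14.5 in DM, and 6.42 and 7.51 in WT HSPCs. Contacts with Hjv ran otherwise: the fragment 230 kb away scored 7.26 and 5.06 in Npm1c, 7.50 and 6.79 in Flt3-ITD, 3.16 and 8.56 in DM, and 9.13 and 13.3 in WT HSPCs. From this 1 promoter, the contact at 122 kb was highest in both DM libraries and this Hjv contact in both WT libraries. Over 17 outside contacts Fcgr1 averaged 3.12 and 3.40 in DM against 2.92 and 2.86 in WT HSPCs, and the difference of 0.37 (SE 0.19) was not called (limma adjusted p 0.258). The WT neutrophil list held none of the Fcgr1 contacts.

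Ccr2, the receptor that brings monocytes out of the marrow, met 12 fragments between 83.9 and 246 kb, 11 of them towards Ccr3 and Xcr1. At 5 in both libraries were 2 of 12 in Npm1c, 10 in Flt3-ITD, 11 in DM and 4 in WT HSPCs. The fragment that holds an end of Ccr3, an eosinophil chemokine receptor, scored 3.45 and 4.23 in Npm1c, 5.41 and 6.32 in Flt3-ITD, 5.31 and 7.03 in DM, and 4.97 and 2.52 in WT HSPCs. Its mean over 10 outside contacts was 2.89 and 3.26 in DM and 2.65 and 2.52 in WT HSPCs, which do not overlap, with a difference of 0.49 (SE 0.20) that limma did not call (adjusted p 0.148). From the other side, the bait of Ccr1 saw the Ccr2 fragment 146 kb away at 9.0 and 6.6 in Npm1c, 9.9 and 10.5 in Flt3-ITD, 9.5 and 13.2 in DM, and 9.1 and 7.1 in WT HSPCs. A bait at chr9:124018442-124023564, 80.9 kb away, ran the other way. It saw the Ccr2 fragment at 21.3 and 18.6 in Npm1c, 11.9 and 21.6 in Flt3-ITD, 13.5 and 12.3 in DM, and 21.9 and 14.7 in WT HSPCs. Both DM libraries lay below both WT libraries there.

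The other surface markers had few contacts each. Cx3cr1, the fractalkine receptor of monocytes and microglia, met 2 fragments at Xirp1, and the one 54.2 kb away scored 1.94 and 2.98 in Npm1c, 4.40 and 4.63 in Flt3-ITD, 6.35 and 5.08 in DM, and 2.63 and 2.22 in WT HSPCs. Cd14, the lipopolysaccharide co-receptor, had 1 contact, 28.9 kb away, at 2.88 and 4.22 in Npm1c, 4.61 and 4.69 in Flt3-ITD, 5.44 and 6.61 in DM, and 3.73 and 3.00 in WT HSPCs. In both genes the DM libraries were highest and passed 5 alone, but DM alone had brought all their contacts into the list. The 2 baits of Cd68, a lysosomal glycoprotein of macrophages, met a gene-dense stretch 184 to 330 kb away with Eif5a, Gps2, Neurl4 and Gabarap. Those libraries spread widely: the start-coordinate bait, which it shares with Mpdu1, met the Eif5a fragment 255 kb away at 3.54 and 7.18 in Npm1c, 7.77 and 7.07 in Flt3-ITD, 10.4 and 16.1 in DM, and 14.6 and 0 in WT HSPCs, so WT and every other group overlap there. This bait does not hold the RefSeq start site of Cd68. The end-coordinate bait, shared with Eif4a1, does.

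Tlr9, the endosomal receptor for CpG DNA, met 22 fragments. The 7 within 100 kb, at Ppm1m, Twf2 and Poc1a, were all listed by DM alone: their scores ran between 5.44 and 8.96 in DM replicate 1 and between 5.01 and 8.07 in DM replicate 2, against 1.87 to 4.63 in WT replicate 1 and 2.67 to 4.21 in WT replicate 2. None of the 7 had an overlap of DM with WT, although the rule of the list selected them for a high DM score. The other 15, 147 to 247 kb away around Dusp7, Acy1, Abhd14a, Abhd14b and Parp3, reached 5 in both libraries at 2 in Npm1c, 7 in Flt3-ITD, 9 in DM and 6 in WT HSPCs. With Dusp7, a phosphatase of MAP kinases, 147 kb away, Tlr9 scored 2.44 and 2.11 in Npm1c, 2.37 and 2.50 in Flt3-ITD, 7.72 and 8.32 in DM, and 3.71 and 4.81 in WT HSPCs. The bait of Dusp7 saw Tlr9 at 3.0 and 3.3 in Npm1c, 2.6 and 3.4 in Flt3-ITD, 7.9 and 9.6 in DM, and 5.4 and 6.8 in WT HSPCs. Both directions put the DM libraries first and the WT libraries second, though DM alone had brought the contact from the Tlr9 bait into the list. Only 9 of the 22 Tlr9 contacts were brought in by single mutants, under the minimum of 10. Tested with all baits that have at least 1 outside contact, these 9 gave a difference of -0.023 (SE 0.18, limma adjusted p 0.968) between DM and WT, and the other 13 were all brought in by DM, 12 of them by DM alone.

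Clec9a, the receptor by which cross-presenting dendritic cells sense dead cells, had 26 contacts in 3 stretches. In the near stretch 13 lay 57.9 to 139 kb away over Clec7a (dectin-1), Olr1, Tmem52b and Gabarapl1, 3 lay on the other side at Cd69 and Klrb1c, and 10 lay 1938 to 2000 kb away around Styk1 and Ybx3. Of these 13 near contacts, 2 reached 5 in both Npm1c libraries, 8 in Flt3-ITD, 8 in DM and 3 in WT HSPCs. In the far stretch it was 4 of 10 in Npm1c, 4 in Flt3-ITD, 2 in DM and 2 in WT HSPCs. Flt3-ITD and DM thus held the most near contacts, and Npm1c and Flt3-ITD the most far ones.

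The contact of Clec9a with Cd69, an activation marker of lymphocytes, 135 kb away, scored 2.66 and 2.0 in Npm1c, 2.34 and 2.14 in Flt3-ITD, 7.08 and 6.6 in DM, and 1.38 and 2.69 in WT HSPCs. The Cd69 bait saw Clec9a at 2.7 and 2.4 in Npm1c, 2.7 and 2.3 in Flt3-ITD, 8.1 and 8.7 in DM, and 1.6 and 3.4 in WT HSPCs. Only the DM libraries passed 5, from both ends. DM alone brought both contacts into the list, so this restates the rule of the list. The baits of Klrb1b, Klrb1c and Clec2i, in the neighbouring cluster of natural killer receptors, also saw Clec9a above 5 in both DM libraries, as those of Klrb1b and Clec2i did in both Npm1c libraries, and the genes of that cluster are related in sequence, whose part in the scores was not tested.

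Among single contacts, tested by limma over the 88421 contacts on autosomes and X in 1 fit of the 8 HSPC libraries, 1 of the 191 was called for DM against WT, and it was lower. This was Clec9a with chr6:131400123-131404564, 1993 kb away, at 7.90 and 6.95 in Npm1c, 5.78 and 2.97 in Flt3-ITD, 0.00195 and 0.122 in DM, and 4.06 and 3.53 in WT HSPCs. Both DM libraries were near 0 and below every other library. The log2 difference was -2.18 (SE 0.35, adjusted p 0.0464 in limma) against WT, in a comparison with 0.42% of contacts called higher and 0.156% lower. Against Npm1c it was -2.99 (adjusted p 0.0133, 0.278% higher and 0.283% lower over all contacts), and against Flt3-ITD -2.29 (adjusted p 0.0426, 0.137% higher and 0.321% lower), in limma with the same SE. Npm1c had brought this contact into the list. The score of Npm1c thus enters the comparison with Npm1c, which is a description of a selected contact, and 0 of these genes' contacts were called for it when only contacts brought in by outside groups were kept. For DM against WT and against Flt3-ITD, limma's adjusted p was then 0.128 and 0.146, with quantile normalization it was 0.0751 and 0.0862, and in each of the 3 comparisons the call was lost with any 1 library of the comparison left out.

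**Figure D4:**
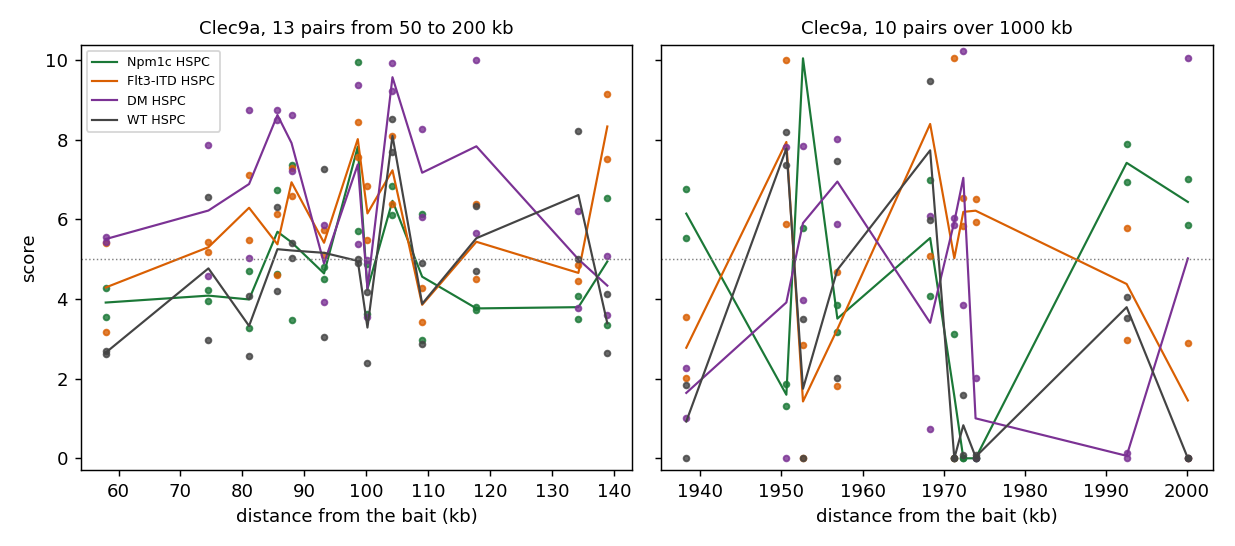
Scores of Clec9a contacts against distance from the bait in kb, with 1 point per library, lines through group means and a dotted line at 5; 13 contacts from 57.9 to 139 kb on the left, 10 contacts from 1938 to 2000 kb on the right. Near 1993 kb both DM points lie at about 0, while both Npm1c points lie above 6, and scores in the far panel spread widely within groups.

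The remaining dendritic cell genes had 2 to 4 contacts each. Batf3, a transcription factor required for cross-presenting dendritic cells, met 4 fragments 164 to 196 kb away that hold no gene end. The nearest scored 2.10 and 4.53 in Npm1c, 2.81 and 1.78 in Flt3-ITD, 5.84 and 8.04 in DM, and 3.12 and 1.71 in WT HSPCs. Both DM libraries were above all the others there. They were above both WT libraries at 3 of the 4 contacts (32.6% of all listed contacts), and the highest score of WT replicate 1 was 8.56. DM alone had brought all 4 into the list. Bst2 (tetherin), a marker of mouse plasmacytoid cells, met a fragment within Unc13a 127 kb away at 3.69 and 4.16 in Npm1c, 5.89 and 4.03 in Flt3-ITD, 6.75 and 5.44 in DM, and 5.41 and 1.98 in WT HSPCs. Both DM libraries passed 5 there and were above both WT libraries, while 1 Flt3-ITD library lay between them.

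Xcr1, the receptor for the chemokine Xcl1, met the Ccr2 bait 237 kb away at 7.95 and 4.86 in Npm1c, 4.10 and 6.55 in Flt3-ITD, 10.7 and 9.02 in DM, and 4.40 and 2.23 in WT HSPCs. In the other direction, the Ccr2 bait met a fragment within Xcr1, 246 kb away, at 2.42 and 3.66 in Npm1c, 1.47 and 4.38 in Flt3-ITD, 6.75 and 5.95 in DM, and 3.13 and 2.99 in WT HSPCs. These 2 genes thus contacted each other, with both DM libraries highest from either bait. DM alone brought both contacts into the list, so its scores selected them and the difference is a description. Siglech, a lectin of plasmacytoid cells, had contacts of opposite sign: with Svip, 3760 kb away, it scored 0 and 2.60 in Npm1c, 11.5 and 8.37 in Flt3-ITD, 7.29 and 3.81 in DM, and 0 and 0 in WT HSPCs. With Oca2, 472 kb away, it scored 1.37 and 7.89 in Npm1c, 1.2 and 4.96 in Flt3-ITD, 1.97 and 0.925 in DM, and 10.5 and 7.55 in WT HSPCs. Zbtb46, a transcription factor of classical dendritic cells, had no contact at 5 in both DM libraries: with a fragment within Uckl1, 82.7 kb away, it scored 7.54 and 5.65 in Npm1c, 10.5 and 6.69 in Flt3-ITD, 4.81 and 6.40 in DM, and 6.62 and 5.90 in WT HSPCs. Its bait holds the end coordinate of the gene but not the RefSeq start site, together with Abhd16b and Tpd52l2.

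Of the clearance and lectin receptors, Axl, a receptor for dead cells coated with Gas6, had 2 baits. The end-coordinate bait, which holds the start site, met a fragment within Axl 16.9 kb away at 7.05 and 11.7 in Npm1c, 15.2 and 11.7 in Flt3-ITD, 10.1 and 11.2 in DM, and 11.5 and 7.64 in WT HSPCs, where both Flt3-ITD libraries were above the WT libraries and the other groups overlapped WT. The start-coordinate bait, shared with Hnrnpul1, met the adhesion gene Cadm4 at chr7:24480408-24484594, 1271 kb away, at 0 and 0 in Npm1c, 2.82 and 3.09 in Flt3-ITD, 8.25 and 6.90 in DM, and 2.44 and 5.51 in WT HSPCs. Both Npm1c libraries were at 0, and on the log2(score + 1) scale DM exceeded Npm1c by 3.10 (SE 0.37, limma adjusted p 0.0147). This contact was listed by DM alone, so its DM scores selected it and the difference is a description. Its call and that of Clec9a were the 2 of 191 contacts called in that comparison, and leaving out any 1 library of the comparison removed both.

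Mrc1, the mannose receptor, met 2 fragments within Cacnb2, and the nearer, 403 kb away, scored 1.37 and 2.07 in Npm1c, 2.23 and 2.36 in Flt3-ITD, 5.86 and 5.97 in DM, and 2.28 and 2.52 in WT HSPCs. Mertk, another receptor for dead cells, had 1 contact, 114 kb away, at 3.38 and 4.32 in Npm1c, 5.80 and 5.17 in Flt3-ITD, 9.12 and 7.90 in DM, and 6.35 and 3.25 in WT HSPCs. Both genes had their highest scores in the 2 DM libraries. Cd209a, a homologue of human DC-SIGN, met Cd209b, Cd209c, Cd209g and Clec4g among 8 fragments, and the Cd209c fragment 208 kb away scored 0 and 10.5 in Npm1c, 12 and 22.0 in Flt3-ITD, 10.7 and 8.10 in DM, and 8.06 and 8.61 in WT HSPCs. All 8 of its contacts were at 0 in Npm1c replicate 1, which was also at 0 on every contact for 23 of the 5535 baits with 5 or more contacts, against 0 to 9 such baits in the other HSPC libraries. Cd209a belongs to a family of related genes, and the part of read mapping in these zeros was not tested.

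Maf, a transcription factor of tissue macrophages, had 1 contact from each bait, both within Wwox, and the end-coordinate bait had none at 5 in both DM libraries. The start-coordinate bait met it 553 kb away at 0.735 and 0.949 in Npm1c, 1.14 and 2.57 in Flt3-ITD, 7.37 and 5.25 in DM, and 3.16 and 4.13 in WT HSPCs. The end-coordinate bait met it 613 kb away at 0.945 and 6.78 in Npm1c, 5.18 and 7.15 in Flt3-ITD, 6.91 and 2.94 in DM, and 0.498 and 0.355 in WT HSPCs, so both WT libraries were below all the others. The bait shared by C1qa, C1qb and C1qc, which encode the chains of the complement starter C1q, met 2 fragments. The one 177 kb away scored 5.33 and 5.11 in Npm1c, 5.76 and 3.68 in Flt3-ITD, 5.67 and 5.69 in DM, and 3.06 and 4.66 in WT HSPCs, where both Npm1c and both DM libraries were above both WT libraries. At the other contact both DM libraries were below both WT libraries. Over the 2 contacts the mean log2(score + 1) of DM overlapped that of WT, with a difference of 0.011.

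Set against the single mutants, DM gave no promoter call here. For DM against Npm1c, 0 of 4 baits were called by limma and 3 had an unadjusted p under 0.05, as did 271 of all 1729 promoters, of which 0% were called in either direction. Cd74 differed most, at 2.62 and 3.05 in DM against 1.91 and 2.32 in Npm1c HSPCs, a difference of 0.72 (SE 0.23, limma adjusted p 0.154), followed by Fcgr1 (0.52, adjusted p 0.302) and Ccr2 (0.47, adjusted p 0.305). For DM against Flt3-ITD only Clec9a (-0.27, SE 0.21, limma adjusted p 0.444) and Fcgr1 (0.20, SE 0.16, adjusted p 0.471) had 10 outside contacts, and 0 were called, with 0 at an unadjusted p under 0.05, where 0.132% of 1513 promoters were called higher and 5.82% lower. Npm1c against WT gave 0 calls among 6 baits, with 0 at an unadjusted p under 0.05, where 0.153% of 1960 promoters were called higher and 0% lower. Lgmn had the largest difference there, 2.58 and 2.47 in Npm1c against 2.31 and 2.10 in WT HSPCs (0.32, SE 0.25, limma adjusted p 0.974), Fcgr1 had -0.24 and Cd74 0.15.

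The interaction asks whether DM departs from the sum of both single-mutant differences (the DM value plus the WT value, less both single mutants), and it uses all listed contacts, so the selection by score is not removed. Limma called 0 of 6 baits, 2 had an unadjusted p under 0.05 (702 over all 2833 promoters), and 0.282% of 2833 promoters were called higher and 7.2% lower. Tlr9 averaged 2.20 and 2.23 in Npm1c, 2.44 and 2.44 in Flt3-ITD, 2.90 and 2.91 in DM, and 2.34 and 2.31 in WT HSPCs, an interaction of 0.57 (SE 0.21, limma adjusted p 0.122). Fcgr1 gave 0.68 (SE 0.25, adjusted p 0.116) and Clec9a -0.30 (SE 0.24, adjusted p 0.472). Among single contacts, limma called the Axl contact with Cadm4 at 3.36 (SE 0.52, adjusted p 0.0426) and the Clec9a contact 1993 kb away at -3.10 (SE 0.49, adjusted p 0.0457), 1 in each direction of 191, both selected by scores that enter the interaction, where 0.145% of all contacts were called higher and 0.42% lower. With quantile normalization the adjusted p of the Clec9a interaction was 0.103 in limma. Npm1c against WT and Flt3-ITD against WT had 0 called contacts among the 191, with 23 and 20 at an unadjusted p under 0.05 in limma, against 11027 and 12524 of all 88421 contacts, where 0.225% and 0.477% of all contacts were called higher and 0.0848% and 0.0905% lower. Over the 191 contacts the median log2 difference from WT was -0.034 for Npm1c, 0.25 for Flt3-ITD and 0.59 for DM, beside 0.12, 0.23 and 0.16 over all contacts. Quantile normalization, which sets all libraries to 1 distribution, took the medians over all contacts to -0.014, -0.012 and -0.011, and those of the 191 contacts to -0.19, 0.0093 and 0.40, so that the Flt3-ITD shift of these contacts was no longer apparent and the DM shift was. The 191 include contacts that DM alone brought in, a selection that quantile normalization does not remove. Over contacts of these genes brought in by outside groups, without that normalization, the medians were -0.030 for Npm1c, 0.25 for Flt3-ITD and 0.48 for DM. All contacts so chosen gave 0.12, 0.23 and 0.099.

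Seen from the opposite side, the DM difference was small. In 76 listed contacts a bait other than the 27 had one of the 27 fragments as its other end. At 5 or more in both libraries were 26 of the 76 in Npm1c, 44 in Flt3-ITD, 44 in DM and 43 in WT HSPCs. Per library, 65.8% and 73.7% reached 5 in DM, against 68.4% and 68.4% in WT HSPCs, a difference within the spread of the DM libraries.

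**Figure D5:**
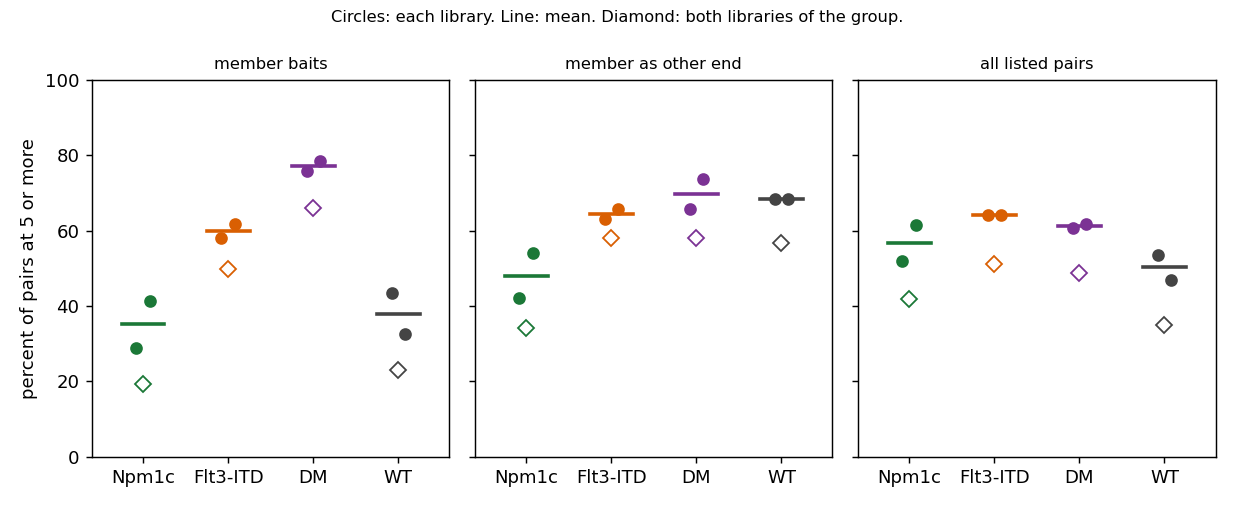
Percent of contacts at a score of 5 or more in each HSPC library (circles), their mean (line) and the percent at 5 or more in both libraries (diamond), for the 191 contacts of the 27 baits, for the 76 contacts that reach these fragments from other baits, and for all listed contacts. DM lies above WT by the most in the first panel, and in the second the DM and WT libraries overlap.

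In WT neutrophils 11 of the 27 baits had 32 listed contacts, 22 of them also in the HSPC list. Of these 22 shared contacts, both neutrophil libraries were above both WT HSPC libraries at 18 and below at 1, against 41.3% and 11.8% of all 14093 shared contacts, and every contact of the neutrophil list had to reach 5 there. With quantile normalization the median log2 difference of the 22 fell from 0.56 to 0.092, and their positive differences from 20 to 15. Over all tested contacts the median fell from 0.30 to -0.013. Clec9a had the most neutrophil contacts, 8 of the 32, all 55.4 to 118 kb away, and with the Tmem52b fragment 104 kb away it scored 8.80 and 12.8 in neutrophils against 8.52 and 7.69 in WT HSPCs. Lgmn with the Cpsf2 and Ndufb1 fragment scored 10.3 and 7.90 in neutrophils against 5.93 and 4.14 in WT HSPCs. The 1 lower contact was Axl with a fragment within Axl 16.9 kb away, at 6.19 and 7.03 in neutrophils against 11.5 and 7.64 in WT HSPCs. Limma called 0 of the 22 (4 at an unadjusted p under 0.05, against 2803 of all tested contacts), where 0.206% of 14051 tested contacts were called higher and 0% lower, and 0 baits of these genes had the 10 contacts needed for the promoter test, where 12.5% of 112 promoters were called higher and 1.79% lower. Xcr1 with Ccr2 scored 5.98 and 6.48 in neutrophils against 4.40 and 2.23 in WT HSPCs.

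Of 73 further genes of antigen presentation, Toll-like receptor signalling and macrophage and dendritic cell control, 48 had a bait. For Flt3-ITD against WT limma called 2 of their 11 tested baits, both higher, where 7.7% of 1858 promoters were called higher: Klf4, a transcription factor of monocytes, at 2.54 and 2.31 in Flt3-ITD against 1.63 and 1.54 in WT HSPCs (0.85, SE 0.20, adjusted p 0.00810), and Mpeg1 (perforin-2 of macrophages), at 2.25 and 2.57 in Flt3-ITD against 2.05 and 1.45 in WT HSPCs (0.66, SE 0.21, adjusted p 0.0483). With quantile normalization 0 of the 11 were called (1 at an unadjusted p under 0.05), and with at least 1 outside contact 0 of 49 (4 at an unadjusted p under 0.05). For DM against WT it called 0 of 7 baits, with 1 at an unadjusted p under 0.05. For Npm1c against WT it called 0 of 13, with 0 at an unadjusted p under 0.05. Their 386 contacts reached 5 in both libraries at 35.0% in Npm1c, 43.0% in Flt3-ITD, 61.9% in DM and 26.4% in WT HSPCs.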

How the data were processed

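Promoter contacts of 8 HSPC and 2 neutrophil libraries were analysed. The authors deposited 1 interaction score per bait, other fragment and library; what the score is relative to, the aligner and the caller are not given in the sources used here. A further column of the deposited files, per the file headers, gives the distance in bp, another quantity than the score. The build was mm10, per the submitters' processing notes. The files hold no counts, so depth is unknown and only the spread between 2 libraries limits precision. Genes were placed on fragments by their start or end in the GRCm38.p6 gene table, which has no strand, and the start site was looked up in the RefSeq promoter table. Scores were used as log2(score + 1) and tested with limma 3.58.1 in R 4.3.3 (two-sided, Benjamini-Hochberg at 0.05), over all contacts in 1 fit of 8 libraries, and over promoters with at least 10 outside-selected contacts in the 4 libraries compared. The scripts were tested on simulated data. The 203 contacts on Y or unplaced sequence were not tested. Named are the members and contacts past the threshold and, where fewer than 3 promoters passed, those with the largest differences up to 3; further contacts described for each gene were chosen after their values were seen. The members and lists were chosen with earlier results of these data known. One contact is not reported here.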

Additional observations from a re-analysis of the deposited data

Results flagged for a closer look

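In 2 single contacts limma's interaction test over all contacts called a difference in the effect of 1 mutation with the other present. The scores that brought each into the list enter that test (DM for Axl, Npm1c for Clec9a), and both calls were lost with the replicate block and with any 1 library left out, that of Clec9a also with quantile normalization. For Clec9a with the fragment 1993 kb away, the difference of DM from Flt3-ITD HSPCs minus that of Npm1c from WT HSPCs was -3.10 on the log2(score + 1) scale. For the Axl start-coordinate bait with Cadm4, 1271 kb away, it was 3.36. Both Npm1c libraries were at 0 in the Axl contact and both DM libraries near 0 in the Clec9a contact.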

How the results depend on the processing

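Most calls of promoters and contacts were lost or gained under some settings. For DM against WT, promoter calls numbered 2, and 1 with quantile normalization, 0 with at least 1, 3 or 5 outside contacts and 4 with all listed contacts, with 0 to 2 when 1 library was left out. For Flt3-ITD against WT, the 1 call became 0 with quantile normalization, with at least 1, 3 or 5 outside contacts and with the replicate block, 3 with all listed contacts, and 0 to 2 without 1 library. For DM against Npm1c and against Flt3-ITD, the 0 calls became 1 each with all listed contacts, and 0 to 2 (Npm1c) without 1 library. For the interaction, 0 became 2 with quantile normalization and 1 with at least 1 contact. Of contacts, the 1 called for DM against WT was lost (0) with quantile normalization, the replicate block, outside contacts only and every left-out library. The 2 for DM against Npm1c were lost (0) with outside contacts only and every left-out library. The 1 for DM against Flt3-ITD was lost (0) with the replicate block, outside contacts only and every left-out library, and with quantile normalization the 1 call was a higher one in place of this lower one. The 2 of the interaction (1 higher, 1 lower) were lost (0) with the replicate block and every left-out library, and with quantile normalization both calls were higher ones. For Npm1c against WT a pseudocount of 0.5 gave 1. The mean share of contacts at 5 or more was higher by 39.3 percentage points in DM than in WT HSPCs, by 11.5 at a threshold of 10, by 26.6 over outside contacts and by 33.8 to 44.8 without 1 library. For Flt3-ITD it was 22.0, 2.62 at 10 and 16.5 to 27.5 without 1 library. For Npm1c it was -2.88, with -9.16 to 3.40 without 1 library; without Npm1c replicate 1 it turned to 3.40 and without WT replicate 1 to 2.62. Uncalled differences that reversed were Cd74 in Npm1c against WT (-0.048 with quantile normalization, -0.028 to 0.32 without 1 library) and Clec9a in DM against Flt3-ITD (0.044 with all listed contacts, -0.58 to 0.032 without 1 library). The cause was not tested. Same-numbered libraries deviated from their group means with correlations of -0.0124 to 0.0613, so no pairing by replicate number was seen in the scores. These correlations do not settle whether such libraries share a batch. For neutrophils against WT HSPCs, the promoter alternatives other than at least 1 contact left 0 of these baits and were not run.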
